A study of Mus musculus with 6 samples.

Results

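The collagen genes are 44 of the 19938 mouse genes measured here through a probe set of a single gene. They were chosen by symbol alone, as every gene called Col, a number, a and a number, and each is represented by its probe set with the highest mean over the arrays. The 44 comprise 11 fibrillar collagens and 33 others, namely 6 chains of basement membrane networks, 6 of beaded filaments, 9 fibril-associated collagens, 3 short-chain network collagens, 4 transmembrane collagens, 2 multiplexins, 1 anchoring fibril collagen and 2 further chains. Total RNA of 3 established mouse cell lines, NIH3T3, L929 and RAW264.7, was hybridised to 6 Affymetrix whole-transcript arrays. Each line was measured once unstimulated and once after 4 h of stimulation with the type I interferon IFN-β, and the series asked which genes this cytokine regulates. NIH3T3 derives from mouse embryo fibroblasts, L929 is a clonal fibroblast line from mouse connective tissue, and RAW264.7 is a macrophage line, the only cell type that the labels name. No allele, transgene or further treatment is given for any line, and no dose of IFN-β is stated.

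Collagens are secreted proteins of the extracellular matrix in which chains wind into a triple helix. Fibrillar collagens pack into the tensile fibres of skin, tendon, bone and cartilage. Type IV forms the sheets of basement membranes, type VI beaded filaments around cells, and fibril-associated collagens coat and link the fibres. Fibroblasts are the main producers of types I, III, V and VI, and their type I genes are known to be sensitive to cytokines, with TGF-β raising and interferon-gamma lowering transcription.

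RefSeq promoter windows (build GRCm38.p6), from 250 bases before to 50 bases after a start site, were at hand for 35 of the 44 genes. The 5 windows below are printed because the results turn on their genes. Col1a2 had one of the largest within-line differences, Col3a1 and Col5a1 differed in opposite directions in the fibroblast lines, and Col4a1 and Col4a2 start head to head. They lie at chr6:4505368-4505667 (plus strand), chr1:45311288-45311587 (plus), chr2:27886175-27886474 (plus), chr8:11312777-11313076 (minus) and chr8:11312555-11312854 (plus), in the order printed, each 5′ to 3′ on the strand of its gene. Capitals mark matches, on either strand, to CCAAT (the CCAAT box), GGGCGG (the GC box), TATAAA (the TATA box), the core of interferon-stimulated response elements or TTCNNNGAA (the gamma-activated site).
Col1a2: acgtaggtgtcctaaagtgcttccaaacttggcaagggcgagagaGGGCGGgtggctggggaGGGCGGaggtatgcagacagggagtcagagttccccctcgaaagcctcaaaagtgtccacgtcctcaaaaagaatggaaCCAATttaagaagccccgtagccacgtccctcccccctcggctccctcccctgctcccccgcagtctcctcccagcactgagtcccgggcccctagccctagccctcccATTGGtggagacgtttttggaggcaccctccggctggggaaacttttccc
Col3a1: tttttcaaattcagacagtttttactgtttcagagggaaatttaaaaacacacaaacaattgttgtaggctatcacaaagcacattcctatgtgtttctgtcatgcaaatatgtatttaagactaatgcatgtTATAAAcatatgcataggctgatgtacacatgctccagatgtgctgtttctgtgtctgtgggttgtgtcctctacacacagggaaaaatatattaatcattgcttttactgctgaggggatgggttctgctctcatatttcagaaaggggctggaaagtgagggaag
Col5a1: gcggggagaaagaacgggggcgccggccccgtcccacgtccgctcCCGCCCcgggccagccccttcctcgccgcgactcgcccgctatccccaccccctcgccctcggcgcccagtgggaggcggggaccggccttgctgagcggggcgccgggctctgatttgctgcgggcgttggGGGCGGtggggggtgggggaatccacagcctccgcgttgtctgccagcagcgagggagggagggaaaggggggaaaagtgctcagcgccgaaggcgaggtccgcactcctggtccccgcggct
Col4a1: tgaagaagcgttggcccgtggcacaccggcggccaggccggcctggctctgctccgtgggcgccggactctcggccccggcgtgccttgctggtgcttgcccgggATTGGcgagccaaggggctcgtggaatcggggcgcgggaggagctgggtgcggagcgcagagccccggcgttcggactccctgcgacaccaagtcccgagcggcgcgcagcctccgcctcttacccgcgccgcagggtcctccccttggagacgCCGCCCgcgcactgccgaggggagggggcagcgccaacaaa
Col4a2: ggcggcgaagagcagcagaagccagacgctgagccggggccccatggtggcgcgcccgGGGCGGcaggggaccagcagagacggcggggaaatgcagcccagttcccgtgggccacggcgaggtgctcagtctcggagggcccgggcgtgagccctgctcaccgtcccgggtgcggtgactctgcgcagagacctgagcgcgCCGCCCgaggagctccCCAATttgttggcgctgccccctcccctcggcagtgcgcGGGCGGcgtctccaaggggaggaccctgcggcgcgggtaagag

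A match is a description of letters and not a binding site. Col1a2 held GGGCGG at -205 and -188 and CCAAT at -109, counted from the start site as 1. It also held CCAAT on the opposite strand, printed as ATTGG, at 1. Col3a1 held only TATAAA, at -117. The windows of Col4a1 and Col4a2 shared 78 bases and held CCAAT and GGGCGG. Over the 38 windows of the 35 genes, GGGCGG was found in 60.5%, against 35.7% of all 32851 windows of this length. CCAAT was found in 34.2% against 37.4%, TATAAA in 13.2% against 13.6%, and TTCNNNGAA in 5.26% against 8.3%. The core of interferon-stimulated response elements occurred in 0 of the 38 collagen windows and in 3.44% of all windows.

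All values are deposited log2 levels, in which 1 unit is a 2-fold difference, and the number of arrays limits their precision. Levels of different probe sets are not compared with each other, and the deposited values carry no detection calls. On 5 arrays the median level of all genes was 5.07 to 5.22, and on that of stimulated NIH3T3 it was 5.49. The median log2 change of all genes with IFN-β was therefore 0.17 in NIH3T3, against -0.05 in L929 and -0.03 in RAW264.7. It was -0.01 in NIH3T3 after quantile normalization and -0.10 after each array was centred on its median over genes. The labelled lines were checked against markers. Unstimulated, the 14 fibroblast markers measured had median levels of 10.51 in NIH3T3, 7.65 in L929 but 4.47 in RAW264.7, and the 12 macrophage markers 3.82, 4.14 and 10.41. Vim, an intermediate filament gene, stood at 12.55, 12.38 and 10.54 in that order, Fn1, encoding fibronectin, at 12.40, 10.29 and 3.78, and Lyz2, a lysozyme, at 3.58, 5.08 and 12.07. In the limma test described below, L929 was lower than NIH3T3 for 11 of these 14 fibroblast markers (9.0% of all genes) and higher for 1 (7.09%). RAW264.7 was lower than NIH3T3 for 14 (12.5% of all genes), lower than L929 for 8 (8.86%), and higher than either for 0. The proteoglycan gene Dcn, for example, stood at 3.41 in L929 against 10.8 in NIH3T3. Chondrocyte, epithelial, endothelial and contractile markers had medians between 3.78 and 4.65 in every line, although NIH3T3 had high Sox9, a cartilage regulator, at 9.51 and Acta2, smooth muscle actin, at 10.79. Of 12 interferon-induced genes listed as a check on the treatment, 10 were measured and all 10 rose, with median log2 changes of 4.70, 7.16 and 4.26.

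The first comparison was between the lines, over both conditions. Collagen levels separated the fibroblast lines from the macrophage line for a minority of the genes. Of the 44 genes, 12 spanned 2 or more log2 units over the arrays (5 fibrillar and 7 other), and the remaining 32 spanned less, 28 of them under 1. In every one of these 12 genes both RAW264.7 arrays lay below all L929 and all NIH3T3 arrays. The 12 were picked by their range over the same arrays, so this separation describes them and is no test. How many of all genes had such a range or separation was not counted. Differences were tested with limma, with line and treatment in the model, Benjamini-Hochberg adjustment over all genes and a threshold of an adjusted p of 0.05. Each line had 2 arrays, 1 a condition, and p-values measure only the spread among these arrays. In these cultures fewer producing cells and less RNA per cell cannot be told apart.

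**Figure D1:**
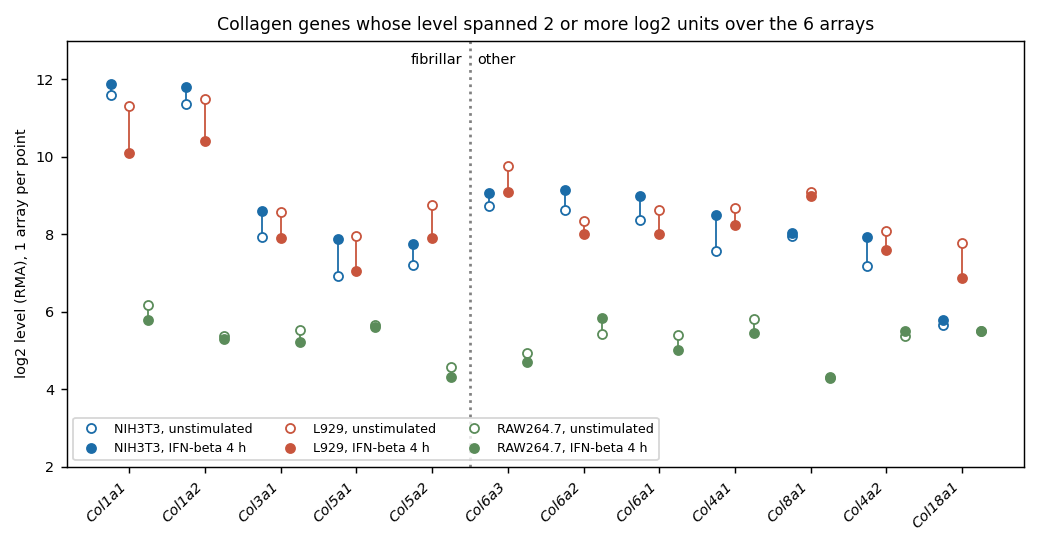
Log2 level (vertical axis, RMA) of the 12 collagen genes that spanned 2 or more log2 units over the arrays, fibrillar genes left of the dotted line. Each point is 1 array, open for unstimulated and filled for IFN-β, and lines join the arrays of a cell line; RAW264.7 lies lowest for all 12, near NIH3T3 only for Col18a1, where its highest value is 5.50 against 5.67.

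RAW264.7 was lower than NIH3T3 for 14 of the 44 collagen genes and higher for 0, where 12.5% of all genes were called lower and 12.8% higher. The 14 were 5 fibrillar and 9 other collagens. Against L929 it was also lower for 14, 6 fibrillar and 8 other, and higher for 0, with 8.86% of all genes called lower and 10.8% higher. These contrasts share the RAW264.7 arrays.

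Type I collagen, the main protein of most fibres, is built from the chains of Col1a1 and Col1a2. In the order unstimulated and stimulated, Col1a1 (probe set 10380419) stood at 11.60 and 11.87 in NIH3T3, 11.32 and 10.10 in L929, against 6.17 and 5.79 in RAW264.7. Col1a2 (10536220) stood at 11.36 and 11.80, 11.50 and 10.41, and 5.37 and 5.29. The arrays of the macrophage line were far below the others, and those of NIH3T3 and L929 overlapped for Col1a2 but not for Col1a1. RAW264.7 minus NIH3T3 was -5.75 ± 0.31 log2 units (SE) for Col1a1, 53.9-fold lower (adjusted p = 3.38e-07), and -6.25 ± 0.32 for Col1a2, 76.1-fold lower (adjusted p = 2.29e-07). RAW264.7 minus L929 was -4.73 ± 0.31 and -5.62 ± 0.32, and negative differences below likewise mean a lower level in the line named first.

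Col3a1, whose type III collagen is found with type I in elastic tissues, stood at 7.92 and 8.59 in NIH3T3, 8.57 and 7.92 in L929, against 5.54 and 5.22 in RAW264.7. The fibroblast lines overlapped and both lay well above the macrophage line, with a difference of -2.88 ± 0.29 from NIH3T3 and of -2.86 ± 0.29 from L929. Type V collagen sits in the core of type I fibrils and sets their diameter. Its chain Col5a1 stood at 6.91 and 7.88, 7.94 and 7.04, and 5.66 and 5.59. Col5a2 stood at 7.20 and 7.75, 8.76 and 7.91, and 4.58 and 4.32. Both were lower in RAW264.7, with differences of -1.77 ± 0.35 for Col5a1 and -3.03 ± 0.30 for Col5a2 from NIH3T3, and of -1.87 ± 0.35 and -3.89 ± 0.30 from L929. The 2 calls of Col5a1 were lost when all probe sets of the array were tested together (adjusted p = 0.0538 and 0.0585). The third chain, Col5a3, differed from these. It stood at 5.23 and 5.93 in NIH3T3, 6.98 and 6.29 in L929, against 5.32 and 5.19 in RAW264.7, so that the macrophage line lay beside NIH3T3 and only L929 was high. RAW264.7 was lower than L929, at a difference of -1.38 ± 0.29 (adjusted p = 0.00754, and 0.0746 with all probe sets), but not detectably lower than NIH3T3 (-0.32 ± 0.29, 95% interval -0.98 to 0.33).

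The other 5 fibrillar genes varied little. Col2a1, the collagen of cartilage, stood at 6.0 and 6.41 in NIH3T3, 6.09 and 5.94 in L929, against 5.64 and 5.54 in RAW264.7. Its arrays of RAW264.7 were the lowest, but the difference from NIH3T3 of -0.62 ± 0.22 missed the threshold (adjusted p = 0.0647). Over the other settings of the limma fit the lowest adjusted p of this difference was 0.0457, which passes. Col11a1 and Col11a2, also chains of cartilage fibrils, ranged over 0.68 and 0.59 log2 units across the arrays. Col24a1 and Col27a1, fibrillar collagens of developing bone and cartilage, ranged over 0.38 and 0.34. In the limma fit described above, none of these 5 passed a test between lines.

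Among the other collagens, types IV, VI and VIII carried the largest differences. Col4a1 and Col4a2 encode the chains of the most common basement membrane network. Col4a1 stood at 7.56 and 8.51 in NIH3T3, 8.68 and 8.23 in L929, against 5.80 and 5.46 in RAW264.7, and Col4a2 at 7.18 and 7.92, 8.09 and 7.58, and 5.38 and 5.50. Both genes were high in the fibroblast lines, which overlapped. RAW264.7 was lower, with differences of -2.40 ± 0.32 and -2.11 ± 0.28 from NIH3T3 and of -2.83 ± 0.32 and -2.40 ± 0.28 from L929. Col4a3, Col4a4 and Col4a5, chains of kidney and other specialised basement membranes, ranged over 0.31, 0.46 and 0.71 log2 units. Col4a6, which pairs with Col4a5, was the exception, at 5.55 and 5.87 in NIH3T3, against 4.41 and 4.73 in L929, with RAW264.7 at 4.34 and 4.71. NIH3T3 alone was high, and RAW264.7 lay below it (difference -1.18 ± 0.19, adjusted p = 0.00111).

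Type VI collagen surrounds fibroblasts and muscle fibres, and its common form contains the chains of Col6a1, Col6a2 and Col6a3. Col6a1 stood at 8.36 and 8.98 in NIH3T3, 8.63 and 8.01 in L929, against 5.41 and 5.02 in RAW264.7. Col6a2 stood at 8.64 and 9.14, 8.33 and 8.01, and 5.42 and 5.85. Col6a3 stood at 8.73 and 9.07, 9.76 and 9.09, and 4.92 and 4.69. All 3 genes were high on the 4 fibroblast arrays and low on both macrophage arrays, with differences from NIH3T3 of -3.46 ± 0.29, -3.26 ± 0.24 and -4.09 ± 0.25 and from L929 of -3.10 ± 0.29, -2.54 ± 0.24 and -4.62 ± 0.25. The related Col6a4, Col6a5 and Col6a6 ranged over 0.72, 0.57 and 0.51 units and passed none of these tests. Col8a1, of a short-chain network in vessel walls and the cornea, stood at 7.95 and 8.02 in NIH3T3, 9.09 and 8.99 in L929, against 4.28 and 4.31 in RAW264.7. The 3 lines did not overlap, and RAW264.7 differed from NIH3T3 by -3.69 ± 0.20 and from L929 by -4.75 ± 0.20. Its partner Col8a2 ranged over 0.55 units.

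Col16a1, a fibril-associated collagen, stood at 7.14 and 7.27 in NIH3T3, 7.04 and 6.60 in L929, against 5.69 and 5.55 in RAW264.7. It was lower in the macrophage line, with differences of -1.59 ± 0.21 from NIH3T3 and -1.20 ± 0.21 from L929. Col12a1, another of this class, was lower in RAW264.7 than in NIH3T3 (-0.84 ± 0.22, adjusted p = 0.0194). The other 7 fibril-associated collagens, the 4 transmembrane collagens and Col7a1, which anchors skin epithelium, passed no test against RAW264.7. Col18a1, whose end fragment is endostatin, stood at 5.67 and 5.77 in NIH3T3, 7.78 and 6.86 in L929, against 5.50 and 5.49 in RAW264.7. L929 alone was high, and RAW264.7 was lower than L929 (-1.82 ± 0.26, adjusted p = 0.00062). Its difference from NIH3T3, -0.22 ± 0.26, did not pass.

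The fibroblast lines were then compared with each other. L929 was higher than NIH3T3 for 3 of the 44 collagen genes (7.09% of all genes were called higher) and lower for 2 (9.0% of all genes). The 3 higher were Col18a1 by 1.60 ± 0.26 (3.04-fold, adjusted p = 0.00214), Col8a1 by 1.06 ± 0.20 (adjusted p = 0.00426) and Col5a3 by 1.05 ± 0.29 (adjusted p = 0.0355). The 2 lower were Col4a6, at -1.14 ± 0.19 (adjusted p = 0.00259), and Col1a1, at -1.02 ± 0.31 (2.03-fold, adjusted p = 0.0490). These differences are over both conditions, and on the unstimulated arrays alone Col1a1 was 1.21-fold lower in L929. Without the stimulated NIH3T3 array the Col1a1 difference was -0.48 and no longer passed (adjusted p = 0.440), while Col4a1 at 1.10 (adjusted p = 0.0183) and Col5a2 at 1.41 (adjusted p = 0.0114) passed as higher in L929. Col1a1 was also lost after quantile normalization (adjusted p = 0.0598) and with all probe sets (0.203), and Col5a3 with all probe sets (0.170).

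The response to IFN-β shared by the lines was tested next, with the line as a block, so that the 3 lines stand in for replicates. Of the 44 collagen genes 0 passed in limma and 0 had an unadjusted p under 0.05, where 0.732% of all genes were called, all of them higher. At so small a share, a count of 0 among 44 genes does not show that they lack a response. Of the 44 mean changes 22 were above 0 and 22 below, with a median of -0.0008 against 0.027 for all genes. The lowest adjusted p, 0.954, was that of Col4a6, which was higher in each line, by 0.32, 0.32 and 0.37 as deposited (NIH3T3, L929, RAW264.7; SD 0.03 over lines). These changes were less even after quantile normalization, at 0.11, 0.29 and 0.42, and after median centring, at 0.05, 0.32 and 0.40. Col1a1 had a mean change of -0.44 ± 0.25 (SE, n = 3 lines, adjusted p = 0.964) and Col5a1 of 0.0007 ± 0.29. The value for Col5a1 is a mean of changes of unlike sign, with an SD over lines of 0.93. Col8a1 differed from that pattern, with changes of 0.07, -0.10 and 0.02 and a 95% interval of the mean from -0.36 to 0.35.

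A change within a line compares 1 pair of arrays and has no test. At the 3-fold limit of the series' own count, 0 of 44 collagen genes passed in NIH3T3 (0.517% of all genes), L929 (0.903%) or RAW264.7 (0.617%). At 2-fold there were 0 in NIH3T3 (2.02% of all genes) and 0 in RAW264.7 (1.21%), and 2 lower genes in L929 (0.376% of all genes were lower by that much). These 2 were the type I genes, Col1a1 at 2.33-fold and Col1a2 at 2.13-fold lower in the stimulated culture. Counted from the lowest of the 19938 changes in L929, they ranked 21 and 48. At 1.5-fold, 9 collagen genes were lower in L929 (6.37% of all genes), 9 were higher in NIH3T3 (12.2%) and 0 differed in RAW264.7 (4.18%). After quantile normalization 7 collagen genes were lower in L929 and 7 higher in NIH3T3, against 940 and 779 of all 19938 genes. After median centring the counts were 9 and 2, against 1245 and 654 of all genes.

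The 9 genes lower in L929 were 6 fibrillar genes, Col1a1, Col1a2, Col3a1, Col5a1, Col5a2 and Col5a3, with Col6a1, Col6a3 and Col18a1. After the type I genes, Col5a1 was at -0.90, Col5a2 at -0.85, Col5a3 at -0.69 and Col3a1 at -0.65. Among the others Col18a1 was at -0.92, Col6a3 at -0.67 and Col6a1 at -0.62. Every fibrillar gene was below 0 in L929, with a median of -0.65 (11 of 11, and 10 of 11 after quantile normalization, where Col11a2 was at 0.04). The other collagens had a median of -0.18, and all genes one of -0.05. In all, 39 of the 44 were lower in L929, where 55.8% of all genes were. Among genes above the median level the share was 65.3%, with a median change of -0.14. The collagen genes above that level numbered 27, of which 27 were lower, with a median of -0.35.

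**Figure D2:**
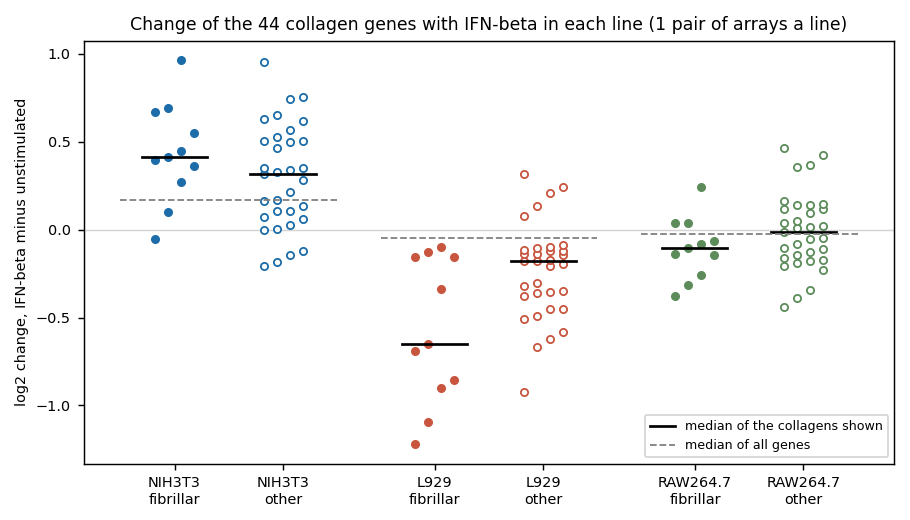
Log2 change with IFN-β (vertical axis) of the 44 collagen genes in each line, filled for the 11 fibrillar and open for the 33 other genes, 1 pair of arrays a line. Black bars are medians, at 0.41 and 0.32 for NIH3T3, -0.65 and -0.18 for L929 and -0.10 and -0.01 for RAW264.7, and dashed bars the median of all genes; after median centring the NIH3T3 medians are 0.14 and 0.05.

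In NIH3T3 most collagen genes were on the other side of 0. Stimulated values were higher for 38 of 44 as deposited (68.3% of all genes), for 29 after quantile normalization (48.6%) and for 27 after median centring (38.4%). The 9 genes higher by 1.5-fold or more were the fibrillar Col3a1 (0.67), Col5a1 (0.97) and Col5a3 (0.69), the basement membrane genes Col4a1 (0.95) and Col4a2 (0.74), and Col6a1 (0.62), Col9a2 (0.76), Col15a1 (0.63) and Col28a1 (0.65). Col9a2 is a chain of cartilage, and Col15a1 is a multiplexin of basement membrane zones. Only Col4a1 and Col5a1 kept that size after median centring, at 0.68 and 0.70. The type I genes were higher by 0.27 and 0.45, which became 0.54 and 0.63 after quantile normalization and 0.001 and 0.18 after median centring. Epithelial and endothelial markers, which are low in this line, had median changes of 0.42 and 0.48 on the same arrays, and genes above the median level one of 0.04. The part of that shift in the collagen values was not tested.

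In RAW264.7, where the 44 genes had levels between 3.79 and 6.17, 19 were higher (44.9% of all genes) and 25 lower (55.0%). The median was -0.06, against -0.03 for all genes. The changes ran from -0.44 for Col9a1 to 0.46 for Col12a1. Col6a1 was at -0.39 and Col6a2 at 0.43, although their products join in 1 molecule. The fibrillar median was -0.10, with Col1a1 at -0.38 and Col3a1 at -0.32.

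The values of the fibroblast lines were set side by side, since they share no array. Of the 44 genes, 34 were higher in stimulated NIH3T3 and lower in stimulated L929, where 38% of all genes were. The count was 25 after quantile normalization (28% of all genes) and 24 after median centring (19.9%). As deposited, the 34 held all 12 genes with a wide range. In the wide-range genes the median change was 0.53 in NIH3T3 and -0.66 in L929. After quantile normalization these were 0.60 and -0.61, with Col18a1 below 0 in NIH3T3 (-0.11), and after median centring 0.26 and -0.66, with Col8a1 (-0.20) and Col18a1 (-0.17) below 0. The other 32 genes had medians of 0.30 and -0.15, which became 0.06 and -0.14 after quantile normalization. Across the 44 genes the changes in the lines correlated at r = -0.32 (Spearman's rho -0.29), against 0.36 (rho 0.05) over all genes. The genes are no independent replicates, and all share the same 4 arrays. Among the 12 wide-range genes r was 0.04.

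**Figure D3:**
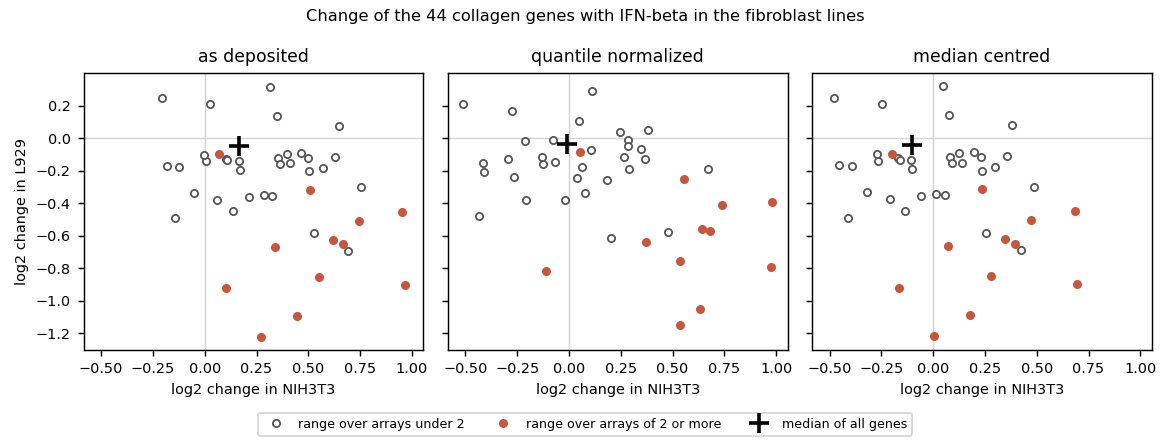
Log2 change with IFN-β in NIH3T3 (horizontal axis) and L929 (vertical axis) of each collagen gene, as deposited, quantile normalized and median centred; filled points are the 12 genes with a range of 2 or more over the arrays and the cross is the median of all genes. The filled points lie below 0 in L929 in all 3 panels, and right of 0 in NIH3T3 for 12, 11 and 10 of 12.

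A decrease of Col1a1 and Col1a2 in L929, already known from these data, led to the next test. The results of these genes in that test are therefore no independent support for the decrease. Whether the response of L929 differed from the mean response of the other lines was tested as an interaction in limma, with 1 residual degree of freedom. It passed for 0 of the 44 collagen genes (0.0702% of all genes). At an unadjusted p under 0.05 there were 8 lower and 0 higher, against 822 lower and 482 higher over all genes. The largest differences were those of Col5a1 at -1.35 ± 0.44 (95% interval -2.33 to -0.37, adjusted p = 0.733), Col1a2 at -1.28 ± 0.37 (-2.10 to -0.45, adjusted p = 0.627) and Col1a1 at -1.17 ± 0.39 (-2.03 to -0.31, adjusted p = 0.733). The other 5 of these 8 were Col5a2 (-1.0), Col5a3 (-0.97), Col18a1 (-0.97), Col4a2 (-0.94) and Col6a2 (-0.79). Of the 44 estimates 42 were below 0, and over all genes 12536 of 19938 were. The median was -0.37 for the 44 against -0.13 for all genes, and the fibrillar median was -0.83. With a trended and robust prior, 2 collagen genes passed, Col1a2 (adjusted p = 0.00161) and Col1a1 (0.00609), among 223 genes in place of 14. Over the 7 other settings the adjusted p ran from 0.00161 to 0.751 for Col1a2 and from 0.00609 to 0.827 for Col1a1.

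**Figure D4:**
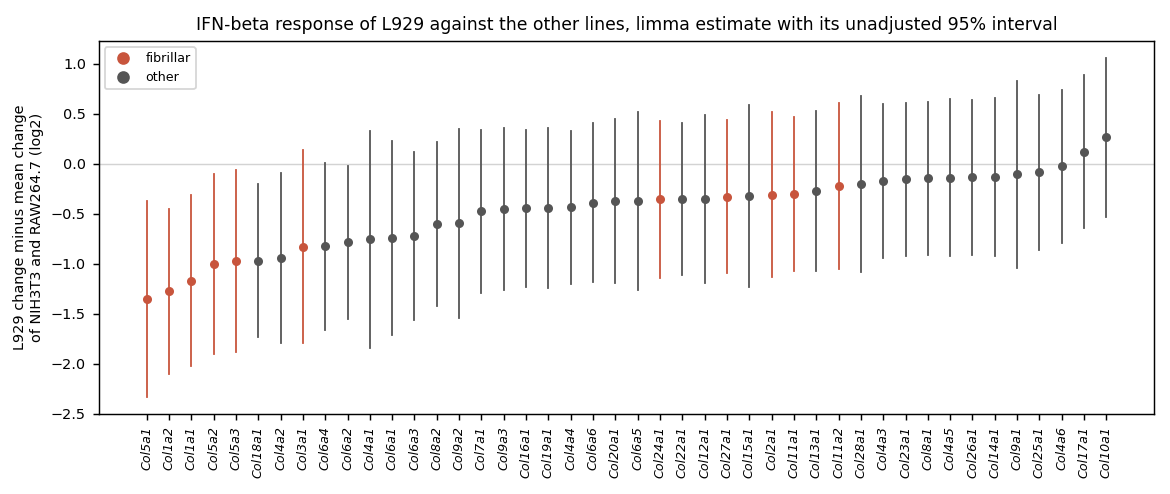
Change of each collagen gene in L929 minus the mean change in NIH3T3 and RAW264.7 (vertical axis, log2), genes ordered by the estimate, with the unadjusted 95% interval from limma as bars. The 5 lowest points are fibrillar genes, from -1.35 for Col5a1 to -0.97 for Col5a3, and 0 of 44 passed the adjusted threshold.

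The same test for RAW264.7 against the fibroblast lines passed for 0 of 44 collagen genes (0.236% of all genes), and 0 had an unadjusted p under 0.05. Every collagen gene had an SE of 0.49 there, since the fit gave 1 variance to all genes. For Col1a1 the difference was 0.10, with a 95% interval from -0.87 to 1.07.

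Genes that make, process, degrade or sense collagen were listed in 6 groups. None of their members passed the test of the IFN-β effect or an interaction. The chaperones and modifying enzymes (21 of 22 measured) had a median change of 0.05 in NIH3T3, one of -0.28 in L929 and one of 0.00 in RAW264.7. In L929 15 of the 21 were lower, where 55.8% of all genes and 65.3% of genes above the median level were. Plod3, a lysyl hydroxylase, had a mean change of 0.32 and Tmem38b, an ion channel of the endoplasmic reticulum, one of -0.28. P4ha1, a prolyl hydroxylase subunit, had the widest spread, at 0.16, -0.28 and 0.69. For the 11 of 13 measured genes of processing and cross-linking the medians were 0.30, 0.01 and 0.12. Loxl3, a lysyl oxidase that cross-links collagen, was higher in every line, by 0.66, 0.98 and 0.44 (mean 0.69 ± 0.17, adjusted p = 0.206). Adamts3, which cuts the N-terminal propeptide, was at 0.81, 0.19 and -0.12.

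For degradation and its inhibitors (19 of 20) the medians were 0.20, -0.13 and 0.02. Ctsk, the collagen-cutting cathepsin K, had changes of 0.55, -0.79 and 0.60, and Fap and Mmp10, both proteases, mean changes of 0.45 and 0.35. Mrc2, an uptake receptor for collagen, was at -1.05 in L929, 0.29 in NIH3T3 and 0.09 in RAW264.7. The collagen receptors (9 of 10) had medians of 0.32, -0.07 and 0.09. Itga2, an integrin chain, was at 0.89, 0.26 and -0.31, Adgrg1, a receptor for type III collagen, had a mean change of -0.24, and the receptor kinase Ddr2 was at 0.25, -0.88 and 0.17. Other matrix proteins (24 of 25) had medians of 0.09, -0.13 and 0.04. Bgn, a proteoglycan of collagen fibrils, had a mean change of -0.34 and Nid1, a basement membrane linker, one of 0.25, and Eln, encoding elastin, was at 0.86, -0.23 and -0.17.

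TGF-β genes and transcriptional regulators of collagen (29 of 30) had medians of -0.01, -0.10 and -0.08. Rfx5, known as a repressor of type I collagen transcription and a regulator of MHC class II, stood at 5.24 and 6.36 in NIH3T3, 4.95 and 5.75 in L929, then 6.09 and 6.77 in RAW264.7. It was higher with IFN-β in every line, by a mean of 0.87 ± 0.17, and just missed the threshold (adjusted p = 0.0561). Tgfbr1, a TGF-β receptor chain, was lower in every line, at -0.26, -1.18 and -0.52 (adjusted p = 0.465). The histone demethylase gene Kdm6b was at 0.41, -0.49 and 0.64.

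**Figure D5:**
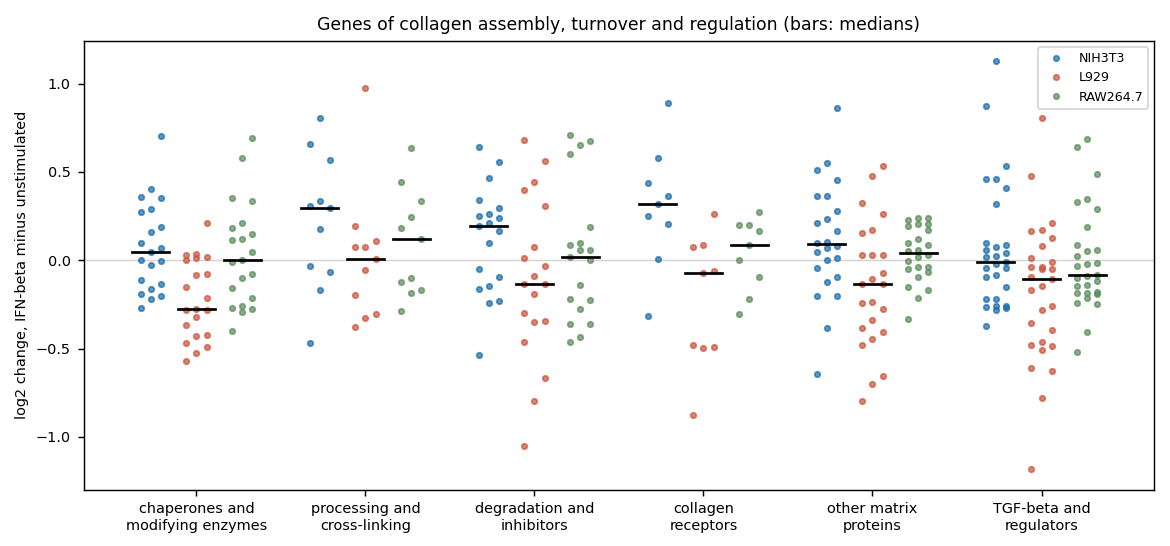
Log2 change with IFN-β (vertical axis) of the genes in 6 lists around collagen, coloured by line, each point 1 gene from 1 pair of arrays and bars the medians. The L929 median of the chaperones and modifying enzymes, -0.28, is the lowest of the bars, and the highest point is Rfx5 in NIH3T3 at 1.13.

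The same lists were compared between the fibroblast lines. Of the other matrix proteins 13 of 24 were lower in L929 than in NIH3T3 and 1 higher, and of the degradation genes 7 of 19 were lower and 1 higher, where 9.0% of all genes were lower and 7.09% higher. The cross-linking enzyme gene Lox stood at 11.36 and 10.90 in NIH3T3 against 3.25 and 3.05 in L929, a difference of -7.98 ± 0.21 (adjusted p = 5.8e-08). Dcn differed by -7.14 and Nid1 by -5.99, Timp3, a protease inhibitor, by -5.54 and the gelatinase gene Mmp2 by -4.29. In the opposite direction L929 was higher by 4.36 for Ctsk, 4.06 for Pcolce2, an enhancer of procollagen cleavage, 1.95 for Creb3l1, a factor that drives collagen secretion, and 1.18 for Serpinh1, the collagen chaperone. The lists of fibroblast markers and other matrix proteins share 5 genes.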

How the data were processed

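Total RNA of the 6 cultures was labelled for Affymetrix whole-transcript arrays, per the labels' protocols. The authors deposited log2 values from RMA (background correction, normalization and summarised probe sets), per the submitters' processing notes. For the RMA version and the annotation build, nothing is stated in these sources. That the base is 2 was inferred from their range of 0.88 to 14.74.

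Of 35557 probe sets, 21789 name 1 gene, 1621 several and 12147 none; 46 name a collagen alone. A gene with several was represented by its highest on average, with no filter on low values. limma 3.58.1 in R 4.3.3 fitted line and treatment (2 residual degrees of freedom, prior 7.87; interactions 1) with Benjamini-Hochberg adjustment over 19938 genes. Empirical Bayes draws each gene's spread toward that of all genes. The fit was run on simulated data with known changes and independent noise drawn from limma's fitted prior. These data held no shift of a whole array, so they do not bear on that of stimulated NIH3T3. Python 3.11.15, pandas 2.3.3, numpy 2.4.6 and matplotlib 3.10.9 were used for tables and figures.

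The members, the 13 gene lists (169 distinct genes measured) and the tests were chosen with earlier results of these data known. Named collagens were every fibrillar gene, the 15 others of highest mean level and any past a test of IFN-β or 2-fold within a line; of each matrix list the 2 largest mean changes and the widest range, and of marker lists those of highest level. The other genes named, such as Col4a6, Col12a1, Col15a1, Col28a1, Ddr2, Mrc2, Lox and Pcolce2, were chosen after their values were seen. Alternatives covered the probe sets, scaling, a filter at the median level of 5.32, the prior, thresholds, the line block and each line left out; leaving out the stimulated NIH3T3 array was added after seeing the data.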

Additional observations from a re-analysis of the deposited data

Results flagged for a closer look

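As deposited, Col3a1, Col5a1, Col5a3 and Col6a1 differed by 1.5-fold or more in opposite directions in the fibroblast lines. They were higher after IFN-β in NIH3T3 and lower in L929. The change in NIH3T3 minus that in L929 was 1.32 log2 units for Col3a1, 1.87 for Col5a1, 1.39 for Col5a3 and 1.24 for Col6a1. Each line gave 1 pair of arrays, and the difference between these 2 lines was not tested. L929 against the mean of the other lines had limma adjusted p-values of 0.781, 0.733, 0.747 and 0.792 in that order. The signs were the same after quantile normalization and after median centring, where the changes in NIH3T3 were 0.40, 0.70, 0.42 and 0.35. After either scaling only Col5a1 kept a difference of 1.5-fold or more in both lines. How many of all genes passed this limit in opposite directions was not counted.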

How the results depend on the processing

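With 1 array a group, no difference within a line has an error, and p-values rest on the spread among 3 lines. The labels give no replicate numbers, and the arrays of a line are paired by the line alone. For the 26 collagen genes named by the rule, 1175 of 1288 values under other settings kept their direction and side of the threshold, 9 newly passed, 7 no longer passed and 97 changed sign, 38 of them for the IFN-β effect. The 97 were short of the threshold under both settings. Changing the threshold, the prior, the filter or the number of probe sets tested left each log2 difference as it was. Values under those settings therefore could not change sign, and the mean of probe sets altered only genes with several. The 146 genes called for IFN-β became 14 with all probe sets and 2 without the line block, and 116 to 223 with one line left out (223 without RAW264.7), with 0 collagen genes in each. L929 was lower than NIH3T3 for 1 collagen gene in place of 2 with all probe sets, with the filter, after quantile normalization and without the stimulated NIH3T3 array, and higher for 5 in place of 3 without that array. The filter removed Col4a6. Genes called for the L929 interaction numbered 14, against 0 with all probe sets, 9 with the filter, 85 after median centring and 223 with the trended and robust prior, where 2 collagen genes passed as lower. Those for RAW264.7 numbered 47, against 4 with all probe sets and 0 after either other scaling. Collagen genes counted within L929 were 0 at 3-fold, 2 at 2-fold and 9 at 1.5-fold, and within NIH3T3 0 at 3-fold and 9 at 1.5-fold. Median centring turned the split of higher and lower calls over all genes from 1413 and 1795 to 2102 and 1491 for L929 minus NIH3T3, from 2552 and 2502 to 3992 and 1892 for RAW264.7 minus NIH3T3, and from 11 and 3 to 81 and 4 for the L929 interaction. The causes of these shifts were not tested.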

Other observations

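Several collagen genes are neighbours in the RefSeq gene order. On chromosome 1, the changes of Col3a1 and Col5a2 were 0.67 and 0.55 in NIH3T3 but -0.65 and -0.85 in L929, and in RAW264.7 they were -0.32 and -0.26. Col4a1 and Col4a2 on chromosome 8 had 0.95 and 0.74, -0.45 and -0.51, and -0.34 and 0.12. Col6a2 and Col6a1 on chromosome 10 had 0.51 and 0.62, -0.32 and -0.62, and 0.43 and -0.39, so that they differed in sign in RAW264.7, where both are at low levels. Col4a6 and Col4a5 on chromosome X had 0.32 and -0.18, 0.32 and -0.17, and 0.37 and 0.12.

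Col6a5 and Col6a6 each had 2 probe sets of their own. The change in L929 was -0.18 on the Col6a5 probe set with the higher mean and 0.17 on the other, and the change in RAW264.7 was -0.16 and 0.40 for Col6a6.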
